A study of Mus musculus with 2 samples.

Results

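The clustered core histone genes were taken as every row of the gene tables whose symbol begins with H2ac, H2bc, H3c or H4c and goes on with a digit. This rule on symbols gave 50 of the 20938 genes listed, namely 14 H2A, 14 H2B, 12 H3 and 10 H4 genes, so the members were chosen by gene symbol and not selected on a level or fold change. They were, however, put forward with earlier results of these data known, and their values are given here as a description with no test. RNA was sequenced from spleen cells isolated as regulatory T cells (Treg cells) from diabetic mice on day 7 after islet transplantation, with 1 library per group. The control library (Ctrl) came from littermate controls and carries the label wild type. The other library is titled KD and carries the label Foxp3 knockdown, whereas its extraction notes name Foxp3-Mettl14f/+ cKO mice, in which Cre expressed from Foxp3 removes 1 of the pair of Mettl14 alleles in Foxp3-expressing cells, and it is called the cKO library below. The study's methods describe mice on a C57BL/6J background, made diabetic with streptozotocin, that received BALB/c islets, and the libraries are described as made without antibody treatment. The sources used here do not say how many mice each library held. Mettl14 encodes a subunit of the complex that writes N6-methyladenosine on mRNA.

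Core histones H2A, H2B, H3 and H4 are the proteins around which DNA is wound in the nucleosome. Cells that replicate their DNA need new histones in large amounts, and these come from many near-identical, mostly intronless genes that lie in clusters and are transcribed mainly in S phase. Their mRNAs typically end in a conserved stem-loop in place of a poly(A) tail, and the stem-loop binding protein SLBP guides their 3' end processing, translation and decay. The libraries were made from poly(A)-purified mRNA, so the levels below describe the histone transcripts that passed that step, and its part in the values was not tested.

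Mettl14 had a level of 917 in the control against 741 in the cKO library, which is a log2 fold change of -0.31 (cKO over control) with an interval of -0.45 to -0.16. Foxp3 had 1497 in the control against 1548 in the cKO library, which is a log2 fold change of 0.05 (-0.06 to 0.15). A level is the deposited normalised read count of a gene, from which whole reads were recovered, 20239325 in the control and 18327535 in the cKO library. Fold changes are given as log2 of the ratio of the levels after adding 1 to each, and each interval is a 95% exact interval on the reads that covers counting error only. Since each group was 1 library, no difference below has a replicate check and none was tested. In bulk RNA, fewer cells of a type and less RNA per cell cannot be told apart. Over the 16659 genes whose level averaged 1 or more, the median log2 fold change was -0.04, and all 50 members passed this filter.

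The stem-loop was looked for in the GENCODE vM21 transcripts of all members as 6 stem bases beginning with GG, a loop of 4 bases written TTNC and the reverse complement of the stem. It was found in 24 members, 7 of H2A, 6 of H2B, 5 of H3 and 6 of H4, and began 25 to 58 bases after the stop codon. Only 3 stems occurred. The stem GGCTCT was present in 18 members, all of H2A, H2B or H3, whereas the H4 members had GGCCCT (4 genes) or GGTCCT (2 genes). Of the 26 members without a match, 14 have transcript models with fewer than 60 bases after the stop codon, and no match says only that these letters are not in the model. One or more examples of each stem, and both members of the identical pair H2ac18 and H2ac19, are printed with the stem in capitals.
H2ac18: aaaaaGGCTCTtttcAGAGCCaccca
H2ac19: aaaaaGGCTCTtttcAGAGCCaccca
H2bc14: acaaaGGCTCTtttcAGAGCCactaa
H3c4: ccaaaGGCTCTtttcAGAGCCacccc
H4c4: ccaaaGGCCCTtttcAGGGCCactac
H4c2: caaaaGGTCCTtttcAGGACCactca

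Promoters of 300 bases (250 before to 50 after the gene start) were found for 45 members in RefSeq (GRCm38.p6, 46 promoters). The letters TATAAA, on either strand, stood in 56.5% of them, against 13.6% of all 32851 promoters. CCAAT stood in 87.0%, against 37.4%. ATTTGCAT, the octamer bound by POU factors such as the product of Pou2f1, stood in 28.3%, against 1.74%, and was in 6 of 14 H2A and 7 of 13 H2B promoters but in none of the 10 H3 and 9 H4 promoters. A match is a description of the sequence, not a site. Genes that begin close together on opposite strands, such as H2ac8 and H2bc8, can have overlapping promoters, so that the same match counts for both. H2bc18 (chr3:96269450-96269749, plus strand) and H4c4 (chr13:23581318-23581617, plus strand) are printed because they had the highest levels per kb of coding sequence, and H2bc8 (chr13:23571150-23571449, plus strand) because it covers the bases between the starts of H2ac8 and H2bc8, whose fold changes are compared below. The capitals mark these 3 motifs on either strand.
H2bc18: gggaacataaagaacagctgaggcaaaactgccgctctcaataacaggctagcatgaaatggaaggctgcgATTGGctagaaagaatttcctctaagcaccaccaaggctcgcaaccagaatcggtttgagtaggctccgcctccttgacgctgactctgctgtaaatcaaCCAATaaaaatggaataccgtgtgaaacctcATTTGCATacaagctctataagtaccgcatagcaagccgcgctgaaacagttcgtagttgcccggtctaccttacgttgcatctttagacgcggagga
H4c4: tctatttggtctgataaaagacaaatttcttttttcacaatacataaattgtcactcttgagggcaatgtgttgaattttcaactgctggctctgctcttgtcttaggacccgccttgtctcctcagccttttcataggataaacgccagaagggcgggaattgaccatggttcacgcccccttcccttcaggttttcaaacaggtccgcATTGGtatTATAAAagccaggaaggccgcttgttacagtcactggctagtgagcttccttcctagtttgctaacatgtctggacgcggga
H2bc8: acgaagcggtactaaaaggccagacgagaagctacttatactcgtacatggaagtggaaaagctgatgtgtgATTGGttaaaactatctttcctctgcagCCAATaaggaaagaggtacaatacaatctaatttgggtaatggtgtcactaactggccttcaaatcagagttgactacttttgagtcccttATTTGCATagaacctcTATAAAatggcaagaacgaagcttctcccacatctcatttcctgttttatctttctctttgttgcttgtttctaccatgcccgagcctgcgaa

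Core histone transcripts were lower in the cKO library for every histone type when the copies were summed. The 50 members together had 137732 in the control against 102949 in the cKO library, which is a log2 fold change of -0.42 (-0.43 to -0.41). They took 0.703% of the control reads (95% exact interval 0.700% to 0.707%) and 0.494% (0.491% to 0.497%) of the cKO reads. Summed H4 had 35708 in the control against 25059.6 in the cKO library, the furthest of the 4 types from equality, with a log2 fold change of -0.51 (-0.54 to -0.49). Summed H2B had 44664 in the control against 33106 in the cKO library, which is a log2 fold change of -0.43 (-0.45 to -0.41). Summed H3 was close to that, at 29374 in the control against 22086 in the cKO library and -0.41 (-0.44 to -0.39). Summed H2A, at 27986 in the control against 22698 in the cKO library, had the smallest difference, -0.30 (-0.33 to -0.28), and this sum contains the pair H2ac18 and H2ac19 described below. The intervals of H2A and H4 overlapped none of the others, and those of H2B and H3 overlapped each other. The reads of H2A per read of H2B were 0.627 in the control and 0.686 in the cKO library, and those of H3 per read of H4 were 0.823 and 0.881.

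Gene by gene, 48 of 50 members had a log2 fold change below 0 (background 53.3% of all genes), with a median of -0.42. Among genes whose level averaged 100 or more, a limit chosen after seeing the data, 47 of 49 members were below 0 (background 47.8%). At least 1.5-fold lower in the cKO library were 14 members, 28.0% of them, against a background of 24.2%, and 1 member was at least 1.5-fold higher (background 17.2%). Within that limit, 13 of 49 were lower (background 8.71%) and 1 was higher (background 11.9%). At least 2-fold lower were 2 members, H2ac1 and H2ac21 (background 18.1%), and 1 was at least 2-fold higher (background 10.3%). For 47 members the counting interval lay wholly below 0, for H2ac19 wholly above, and for H2ac1 and H3c3 it held 0. Apart from H2ac1 and H2ac19, both near 0 reads in a library, the log2 fold changes ran from -1.05 (H2ac21) to 0.0033 (H3c3). Most members therefore lay within a narrow band on the same side of 0, and the nearest to the 1.5-fold threshold were H3c13 at -0.61 just past it and H2bc18 at -0.54 just short of it.

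**Figure D1:**
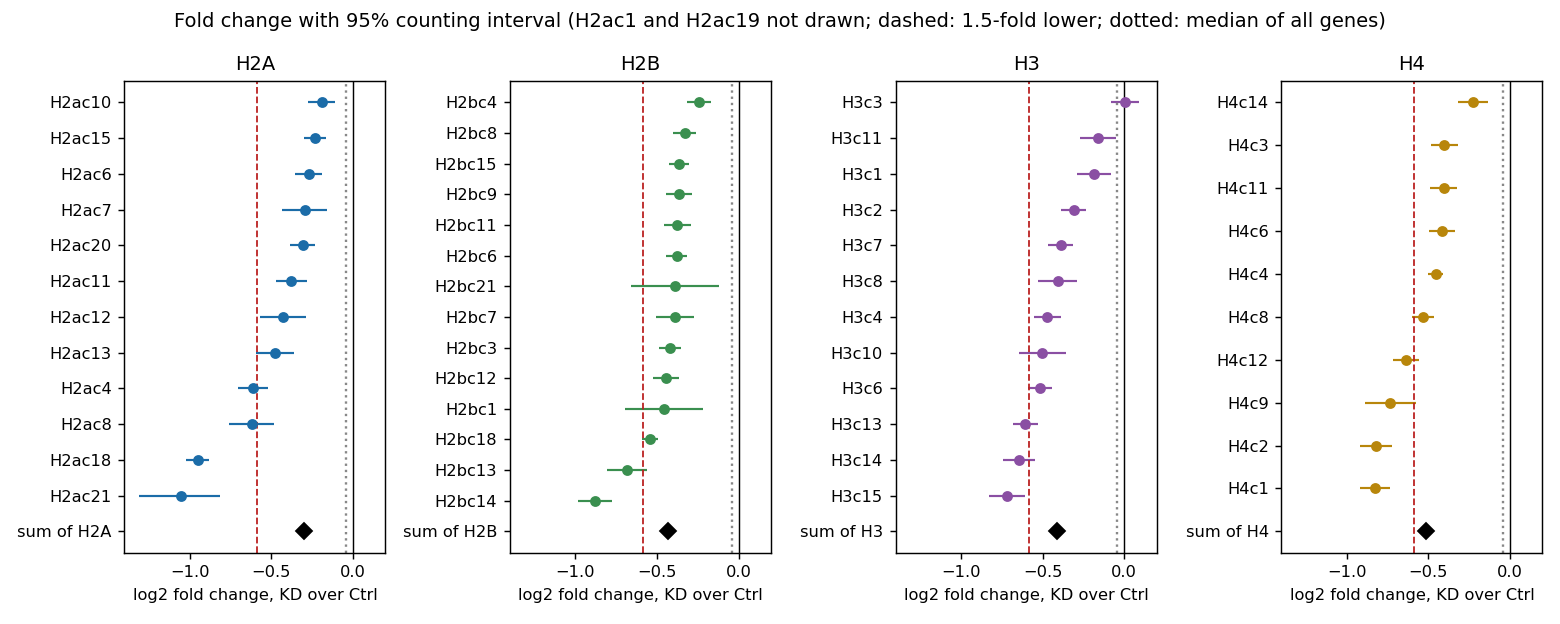
Log2 fold change (cKO, labelled KD, over Ctrl; x axis) of 48 members in panels by histone type, with the sum of each type as a black diamond and 95% counting intervals as bars. Apart from H3c3, at 0.0033, the members drawn lie left of 0, from -1.05 for H2ac21 to -0.16 for H3c11; the dashed line marks 1.5-fold lower and the dotted line the median of all genes, -0.04.

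Among the H2A genes, whose products pair with H2B, 5 of 14 were at least 1.5-fold lower (background 24.2%) and 1 was higher (background 17.2%). H2ac21 had 449.8 in the control against 216 in the cKO library, which is a log2 fold change of -1.05 (-1.31 to -0.81). H2ac18 had 5265 in the control against 2721 in the cKO library, or -0.95 (-1.02 to -0.88), but has to be read with H2ac19. H2ac8 went from 1171 to 761 (-0.62) and H2ac4 from 2564 to 1677 (-0.61). These 4 and H2ac1 made up the lower group. H2ac1, which with H2bc1 encodes testis forms of H2A and H2B, had 4 control reads and 0 cKO reads, so that its call rests on the added 1. Set at 3 reads, the floor used here, its cKO level was at least 1.13-fold lower if the 4 control reads are taken as exact. Its counting interval reached up to 0.83 and held 0, so a lower level is not established. The median of all members with H2ac1 at that bound of 1.13-fold was -0.41.

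The other 8 H2A genes, all short of the threshold, differed less. H2ac13 had 1505 in the control against 1081 in the cKO library (-0.48). H2ac12 had 1056 in the control against 786 in the cKO library (-0.43). H2ac11 had 2211 in the control against 1701 in the cKO library (-0.38). These 3 lay near the median of the members, and the next 5 above it. H2ac20, on chromosome 3, had 3135 in the control against 2534 in the cKO library (-0.31). H2ac7 went from 1017 to 829 (-0.29) and H2ac6 from 2774 to 2298 (-0.27). H2ac15 and H2ac10 were the H2A genes closest to 0. H2ac15 had 4134 in the control against 3515 in the cKO library (-0.23, interval -0.30 to -0.17). H2ac10 had 2697 in the control against 2365 in the cKO library (-0.19, interval -0.27 to -0.11).

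All 14 H2B genes were below 0, between -0.88 and -0.24. At least 1.5-fold lower were 2 of them, a share below the background of 24.2%. H2bc14 had 2289.8 in the control against 1244 in the cKO library, which is a log2 fold change of -0.88 (-0.98 to -0.78). H2bc13 had 1564 in the control against 973 in the cKO library, or -0.68 (-0.81 to -0.56). The gene with the highest H2B level per kb of coding sequence in both libraries, H2bc18, came next. It had 8609 in the control against 5909 in the cKO library, or -0.54 (-0.59 to -0.49), and took 19.3% of the H2B reads in the control (18.9% to 19.6%) and 17.8% in the cKO library (17.4% to 18.3%). H2bc1, the testis form, had reads counted to it in both libraries, with 362 in the control against 264 in the cKO library (-0.45). Of its stretches of 50 bases, 38.2% also stand in H2bc11. Whether some of its reads came from that gene was not tested.

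The other 10 H2B genes were short of the threshold. H2bc12 had 3132 in the control against 2299 in the cKO library (-0.45). H2bc3 had 4186 in the control against 3129 in the cKO library (-0.42). H2bc7 had 1436 in the control against 1096 in the cKO library (-0.39). H2bc21 lies on chromosome 3 and shares no 50-base word with any other gene. Its level was 287 in the control against 219 in the cKO library (-0.39, interval -0.66 to -0.12). H2bc6, whose annotated transcript runs into the linker histone gene H1f4, had 4422 in the control against 3398 in the cKO library (-0.38). H2bc11 had 2896 in the control against 2233 in the cKO library (-0.37). These 6 log2 fold changes lay between -0.45 and -0.37. H2bc9 had 2928 in the control against 2274 in the cKO library (-0.36). H2bc15 had 5280.0 in the control against 4102 in the cKO library (-0.36). H2bc8 had 3707 in the control against 2948 in the cKO library (-0.33). H2bc4, the H2B gene closest to 0, had 3565 in the control against 3017 in the cKO library (-0.24, interval -0.31 to -0.17).

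The clustered H3 genes encode the proteins H3.1 and H3.2. H3.1 genes are H3c1, H3c8, H3c10 and H3c11, and their sum had a log2 fold change of -0.28 (-0.34 to -0.23), with none of 4 past the threshold. The 8 H3.2 genes summed to -0.44 (-0.47 to -0.41), with 3 of 8 at least 1.5-fold lower (background 24.2%). The intervals of both sums did not overlap. All 3 lower genes were on chromosome 3. H3c15 had 1949 in the control against 1186 in the cKO library (-0.72, interval -0.83 to -0.61). H3c14 had 2286 in the control against 1462 in the cKO library (-0.64, interval -0.74 to -0.55). H3c13 had 3806 in the control against 2501 in the cKO library (-0.61, interval -0.68 to -0.53). These are the only H3 members on that chromosome. H3c14 and H3c15 share 668 aligned bases with 1 mismatch, and reads within those bases could have been counted to either. The annotated gene Gm20634 also holds 79.7% of the 50-base words of H3c13, 100% of those of H3c14 and 63.5% of those of H3c15.

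The chromosome 13 genes of H3.2 ranged more widely. H3c6 had 3775 in the control against 2639 in the cKO library (-0.52). H3c4 had 3024 in the control against 2181 in the cKO library (-0.47). H3c7 had 3433 in the control against 2623 in the cKO library (-0.39). H3c2 came closer to 0, with 3144 in the control against 2536 in the cKO library (-0.31). H3c3 was the only member other than H2ac19 not below 0, with 2318 in the control against 2323 in the cKO library (0.0033, interval -0.08 to 0.09). Its share of the H3 reads was 7.89% (7.59% to 8.20%) in the control and 10.5% (10.1% to 10.96%) in the cKO library. Of the H3.1 genes, H3c10 differed most, with 1027 in the control against 726 in the cKO library (-0.50). H3c8 had 1358 in the control against 1023 in the cKO library (-0.41). H3c1 and H3c11 were near 0. H3c1 had 1723 in the control against 1516 in the cKO library (-0.18, interval -0.29 to -0.08). H3c11 had 1530.4 in the control against 1369 in the cKO library (-0.16, interval -0.27 to -0.05).

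H4, the partner of H3, had 4 of 10 genes at least 1.5-fold lower (background 24.2%), and all 10 were below 0. H4c1 had 2802 in the control against 1582 in the cKO library (-0.82, interval -0.92 to -0.73). H4c2 had 2631 in the control against 1491 in the cKO library (-0.82, interval -0.92 to -0.72). H4c1 and H4c2 are neighbours on chromosome 13, and their transcripts aligned over 349 identical bases with 29 mismatches. H4c9 had 969 in the control against 583 in the cKO library (-0.73). H4c12 had 3379 in the control against 2175 in the cKO library (-0.64). The H4 genes short of the threshold began with H4c8, which had 4484 in the control against 3103 in the cKO library (-0.53). H4c4 carried the largest share of the H4 reads, 28.9% (28.5% to 29.4%) in the control and 30.1% (29.5% to 30.7%) in the cKO library. Its level was 10335 in the control against 7542 in the cKO library (-0.45, interval -0.50 to -0.41). H4c6 had 3209 in the control against 2404 in the cKO library (-0.42). H4c11 had 2815 in the control against 2125 in the cKO library (-0.41). H4c3, with the same stem as H4c4, H4c6 and H4c8, had nearly the value of H4c11. It had 2992 in the control against 2264 in the cKO library (-0.40). H4c14, on chromosome 3, shares only 1.01% of its 50-base words with another gene and was the H4 gene closest to 0, with 2092 in the control against 1789.9 in the cKO library (-0.23, interval -0.32 to -0.13).

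Per kb of coding sequence, the control level ran from 7.44 for H2ac19 and 10 for H2ac1 to 33445 for H4c4. H4c4 (33445 and 24407) and H2bc18 (22775 and 15631) were the highest in the control and in the cKO library. H4c8 came next in the control, at 14511 per kb, followed by H2bc15 at 13968 and H2ac18 at 13499. The lowest members above 100 reads in both libraries were H2bc21 (760.1 and 581), H2bc1 (949.6 and 692) and H2ac21 (1153 and 554). The H3 genes spanned the narrowest range of the 4 types, from 2518 for H3c10 to 9328 for H3c13 in the control library. These values are normalised read counts per kb of the coding part alone, and transcript ends of differing length add to them by amounts that were not measured.

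**Figure D2:**
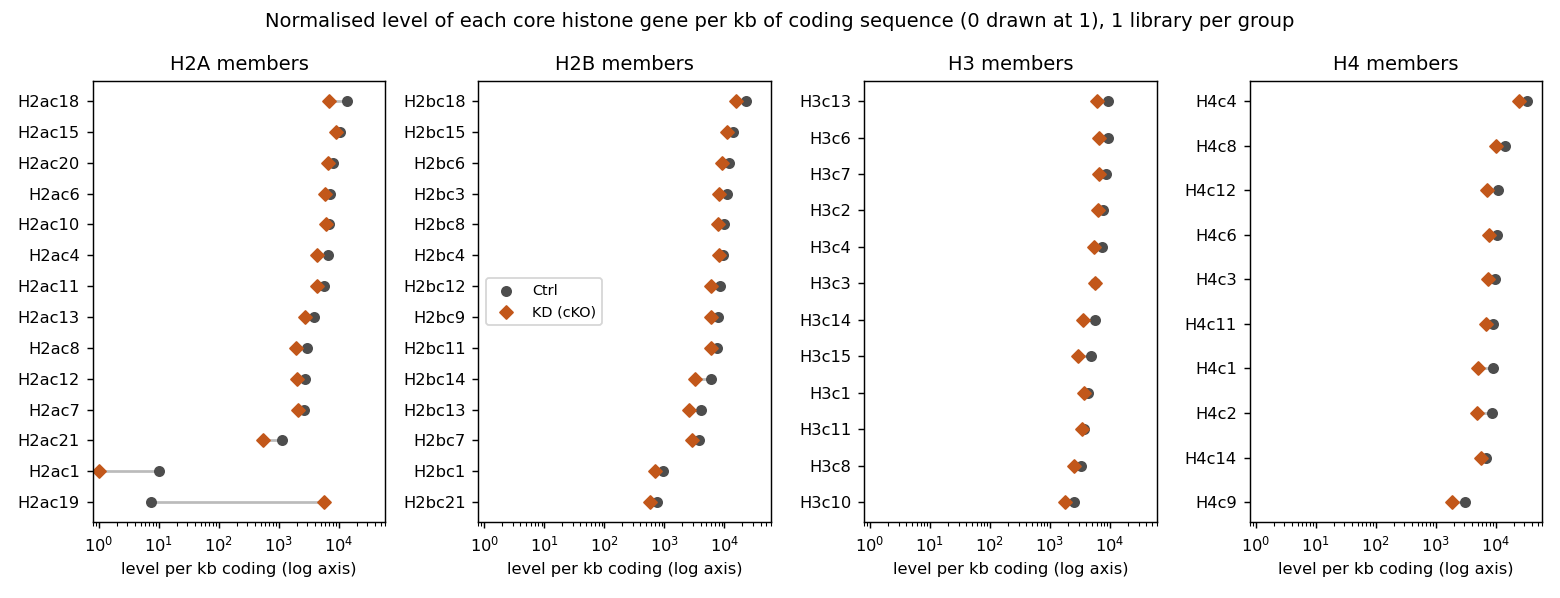
Level of each member (normalised read count per kb of coding sequence, log axis) in the control (grey circles) and the cKO library (orange diamonds, labelled KD), ordered within each histone type by the control level; a level of 0 is drawn at 1. H4c4 and H2bc18 are the highest, H2ac19 crosses the axis from 7.44 to 5674, and most other pairs of points lie close together with the cKO point on the left.

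H2ac18 and H2ac19 lie on opposite strands of chromosome 3, and the 528 bases of the H2ac19 transcript were all identical to H2ac18. H2ac19 had 3 control reads and 1946 cKO reads, a ratio of levels of 763 with an interval of 8.03 to 11.85 on the log2 scale, whereas H2ac18 went from 5442 to 2393 reads. As a share of H2A reads, H2ac18 took 18.8% (18.4% to 19.3%) in the control and 11.99% (11.5% to 12.4%) in the cKO library, and H2ac19 took 9.75% (9.34% to 10.2%) in the cKO library. A read that falls within those bases cannot be assigned to either gene by its sequence, so the pair is read here as a sum. The annotated gene Gm20634 also holds 89.4% of the 50-base words of H2ac18 and 100% of those of H2ac19. Whether reads of the pair were counted to it or left out was not tested. The pair summed to 5267 in the control against 4934 in the cKO library, which is a log2 fold change of -0.09 (-0.15 to -0.04). Without the pair, summed H2A was at -0.35 (-0.38 to -0.33) and the sum of the other 48 members was at -0.43. Of these 48, 13 were at least 1.5-fold lower (background 24.2%) and none higher (background 17.2%). Among the marker genes counted below, Hbb-bs, the adult beta globin gene next to its near copy Hbb-bt, had 3 control reads and 2626 cKO reads. Hbb-bt had 776 control reads and 634 cKO reads, without a fall to match, unlike H2ac18. Whether the counting divided reads of shared sequence differently in the libraries was not tested.

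Sharing of sequence was the rule among the members. A median of 51.0% of a member's 50-base words also stood in a transcript of another gene, from 0% for H2bc21 to 100% for H2ac19 and H3c14. The 25 members that shared under 50% of their words summed to -0.41 (-0.43 to -0.39), with 6 lower (background 24.2%) and none higher (background 17.2%). The 25 that shared more summed to -0.43 (-0.45 to -0.41), with 8 lower and 1 higher against the same backgrounds. The sums thus lay within 0.1 of each other, while a single gene with high sharing remains uncertain. The order of the types did change. Within the 25 with less sharing, summed H3 (-0.28) was closest to 0, and summed H2A was at -0.38. Among the members with less sharing, those furthest from 0 included H2ac21 (21.01% shared, -1.05), H4c9 (28.9%, -0.73) and H4c1 (40.4%, -0.82). H4c14 (1.01%, -0.23) and H2bc4 (30.1%, -0.24) were among those nearest to 0.

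By position (GRCm38.p6), 40 members lay on chromosome 13 between 21715711 and 23934913 and 10 on chromosome 3 between 96219885 and 96270192. The chromosome 13 members summed to -0.42 (-0.43 to -0.40) and 9 of 40 were at least 1.5-fold lower, a share below the background of 24.2%. Those on chromosome 3 summed to -0.43 (-0.45 to -0.40), and 5 of 10 were lower (background 24.2%) and 1 higher (background 17.2%). Without H2ac18 and H2ac19 the chromosome 3 sum was -0.52 (-0.55 to -0.49), an interval that did not overlap that of chromosome 13. Chromosome 13 holds its members in 3 blocks separated by other genes. The first, from 21715711 to 21783397, had 9 members and summed to -0.44. The second, from 22035122 to 22043658, had 5 members and summed to -0.43. The third, from 23531044 to 23934913, had 26 members and summed to -0.41. The intervals of the 3 blocks overlapped.

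In 10 places a member begins on the minus strand within 1000 bases of one that begins on the plus strand, and 9 of these 10 head-to-head pairs join an H2A to an H2B gene, 164 to 608 bases apart over all pairs. H2ac1, with 4 and 0 reads, is left out of the comparison with H2bc1, since its interval has no lower end. In 7 of the other 9 pairs the intervals of the partners overlapped. H2ac11 and H2bc11 were the closest match, at -0.38 and -0.37. H2ac12 and H2bc12 were at -0.43 and -0.45. H2bc9 and H3c7, the only pair with an H3 gene, were at -0.36 and -0.39. In 2 pairs the intervals were apart. H2ac8 was at -0.62 (-0.76 to -0.48) and H2bc8, 180 bases away behind the promoter printed above, at -0.33 (-0.40 to -0.26). H2ac15 was at -0.23 (-0.30 to -0.17) and H2bc15, 164 bases away, at -0.36 (-0.43 to -0.30).

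**Figure D3:**
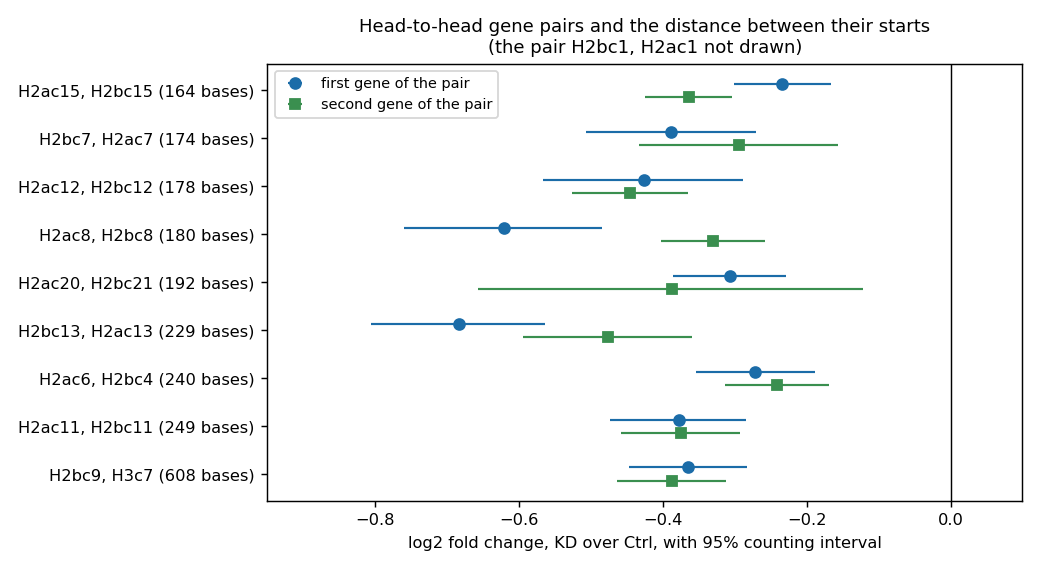
Log2 fold change (cKO, labelled KD, over Ctrl; x axis) of both genes of 9 head-to-head pairs with 95% counting intervals, one pair per row with the distance between their starts in bases. The intervals overlap in 7 of the rows drawn and are apart for H2ac8 with H2bc8 and H2ac15 with H2bc15.

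Members with the stem-loop in their transcript model summed to -0.42 (-0.44 to -0.41) and those without to -0.42 (-0.44 to -0.40). By stem, the sum was -0.39 (-0.41 to -0.37) for the 18 genes with GGCTCT, -0.46 (-0.49 to -0.43) for the 4 H4 genes with GGCCCT and -0.59 (-0.65 to -0.53) for H4c2 and H4c11, whose own values were -0.82 and -0.41. The intervals of the 3 stems did not overlap, and the stems divide H4 from the other types. The GGCTCT sum, and so the sum of all members with the stem-loop, contains H2ac18 and H2ac19, whose own sum was at -0.09 (-0.15 to -0.04). Neither of these sums was computed without the pair. The gap between GGCTCT and GGCCCT is therefore not read further, nor is the match between members with and without the stem-loop. With TATAAA in a promoter, 26 members summed to -0.46 (-0.47 to -0.44), and without it 19 members summed to -0.40 (-0.42 to -0.38). With ATTTGCAT, 13 members summed to -0.46 (-0.48 to -0.43), and without it 32 summed to -0.42 (-0.44 to -0.41). The 6 members without CCAAT, all H4 genes, summed to -0.56 (-0.59 to -0.52), and the 39 with it to -0.41 (-0.43 to -0.40). The intervals were apart for TATAAA and for CCAAT and overlapped for ATTTGCAT. TATAAA, however, divides the pair H2ac18 (with it) and H2ac19 (without it), whose levels can only be read as a sum. The difference by TATAAA and its direction therefore depend on how reads of the pair were assigned. No TATAAA sum without the pair was computed, so this difference is not read further.

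Copies of the same clusters that the tables list under older symbols were outside the rule and had the same sign. All 8 were below 0. The 2 with the highest control levels were Hist1h4m and Hist1h2bq. Hist1h4m had 3705 in the control against 2752 in the cKO library (-0.43), and Hist1h2bq had 3610.3 in the control against 2941 in the cKO library (-0.30). Hist1h2ao, from 169 to 37 reads, had the largest difference, -1.93 (-2.51 to -1.44), while Hist1h2ap, a close copy of it, was at -0.25. With these 8 copies added, all 58 genes summed to -0.41, H2A to -0.30, H2B to -0.42 and H4 to -0.49. The older-symbol copies alone summed to -0.35 (-0.39 to -0.32).

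The linker histones H1, which bind DNA between nucleosomes and lie in the same chromosome 13 cluster, had 2 of 6 genes at least 1.5-fold lower (background 24.2%) and none higher, with a median of -0.36. H1f1 had 7350.2 in the control against 4372 in the cKO library (-0.75). The most abundant, H1f2, had 14699.5 in the control against 14339.6 in the cKO library (-0.04), and H1f4 had 13320.0 in the control against 12202 in the cKO library (-0.13). H1f6, the testis form and the other lower gene, had only 20 and 10 reads. The linker genes thus ran from near 0 to beyond the core histone median.

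The replication-independent variant histones, made outside S phase or deposited at particular chromatin, had a median of 0.03, with 2 of 11 at least 1.5-fold higher, near the background of 17.2% of all genes, and none lower (background 24.2%). The genes of H3.3, the variant that replaces H3 in chromatin at any phase, were H3f3b at 6930.4 in the control against 9233 in the cKO library (0.41, interval 0.37 to 0.46) and H3f3a at 4796 in the control against 6213 in the cKO library (0.37, interval 0.32 to 0.43). Both intervals lay above 0, whereas clustered H3 summed to -0.41. H2az2, of the transcription-linked variant H2A.Z, had 405 in the control against 658 in the cKO library (0.70), and its relative H2az1 had 3401 in the control against 3214 in the cKO library (-0.08). H1f10, a linker variant with 22 and 30 reads, was the other higher gene (0.66). On the other side, Macroh2a1, linked to silent chromatin, had 5163 in the control against 3514 in the cKO library (-0.56), and Cenpa, the H3 variant of centromeres, had 1123 in the control against 799 in the cKO library (-0.49). H2ax, which marks DNA breaks when phosphorylated, had 4176 in the control against 3359 in the cKO library (-0.31). H1f0 was at -0.18, H2aj at 0.05 and Macroh2a2, with 15 and 13 reads, at 0.03.

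Of 26 genes of histone mRNA synthesis and 3' end processing, 4 were at least 1.5-fold lower (background 24.2%) and 1 was higher (background 17.2%), both below the share over all genes, with a median of -0.14. Npat, the coactivator of histone gene clusters that cyclin E and CDK2 phosphorylate, had 1510.1 in the control against 1226 in the cKO library (-0.30). Casp8ap2, needed for histone gene expression, had 2441 in the control against 2031 in the cKO library (-0.27). Slbp had 2383 in the control against 1797 in the cKO library (-0.41, interval -0.50 to -0.32), close to the core histone median. Of the components of the U7 snRNP, which cuts the histone mRNA, Lsm10 had 231 in the control against 149 in the cKO library (-0.63) and Lsm11 475 in the control against 547 in the cKO library (0.20). Zfp473, which works with the U7 snRNP, had 93 and 48 reads (-0.71). Eri1, an exonuclease that trims the end of histone mRNA, had 2381 in the control against 2076 in the cKO library (-0.20). The largest difference downward was in the cyclin gene Ccne2, with 546 in the control against 259 in the cKO library (-1.07), and the largest upward in Tut4, a uridyltransferase of RNA ends, with 4090.1 in the control against 6682 in the cKO library (0.71). Tut7, the most abundant with Tut4, had 6159 in the control against 7169.8 in the cKO library (0.22).

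Histone chaperones and import factors, which carry new histones to DNA, had 4 of 24 genes at least 1.5-fold lower, a share below the background of 24.2%, and none higher (background 17.2%), with a median of -0.30. Chaf1a, of the CAF-1 complex that places H3 and H4 behind the replication fork, had 1766 in the control against 1018 in the cKO library (-0.79). Daxx, a chaperone of H3.3, had 1863 in the control against 2287 in the cKO library (0.30). The most abundant by level were Atrx, the partner of Daxx, at 12965 in the control against 14136 in the cKO library (0.12), and Supt16, of the FACT complex, at 9554 in the control against 7169 in the cKO library (-0.41).

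Genes of DNA replication and S phase, the phase in which the clustered histone genes are transcribed, had a median of -0.59, with 21 of 42 at least 1.5-fold lower (background 24.2%) and none higher (background 17.2%). Mcm6, of the replicative helicase, had 7569.8 in the control against 5199 in the cKO library (-0.54). Rrm1, a subunit of ribonucleotide reductase, had 6218 in the control against 3479.7 in the cKO library (-0.84). The list ran from -1.16 for Gins2, with 383 in the control against 171 in the cKO library, to 0.02 for Gins4, with 676 in the control against 686 in the cKO library, both of the GINS complex. Of 21 mitosis genes, 12 were at least 1.5-fold lower (background 24.2%) and none higher (background 17.2%), with a median of -0.59. The proliferation marker Mki67 had 43423 in the control against 28662 in the cKO library (-0.60), and Top2a, a topoisomerase of dividing cells, had 11822 in the control against 7828 in the cKO library (-0.59). Cdk1 had the largest difference (-0.83) and Nusap1 the smallest (-0.20). Summed, S phase genes were at -0.59 and core histones at -0.42, so that per S phase transcript the cKO library held more core histone reads than the control library. This difference has no replicate check.

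**Figure D4:**
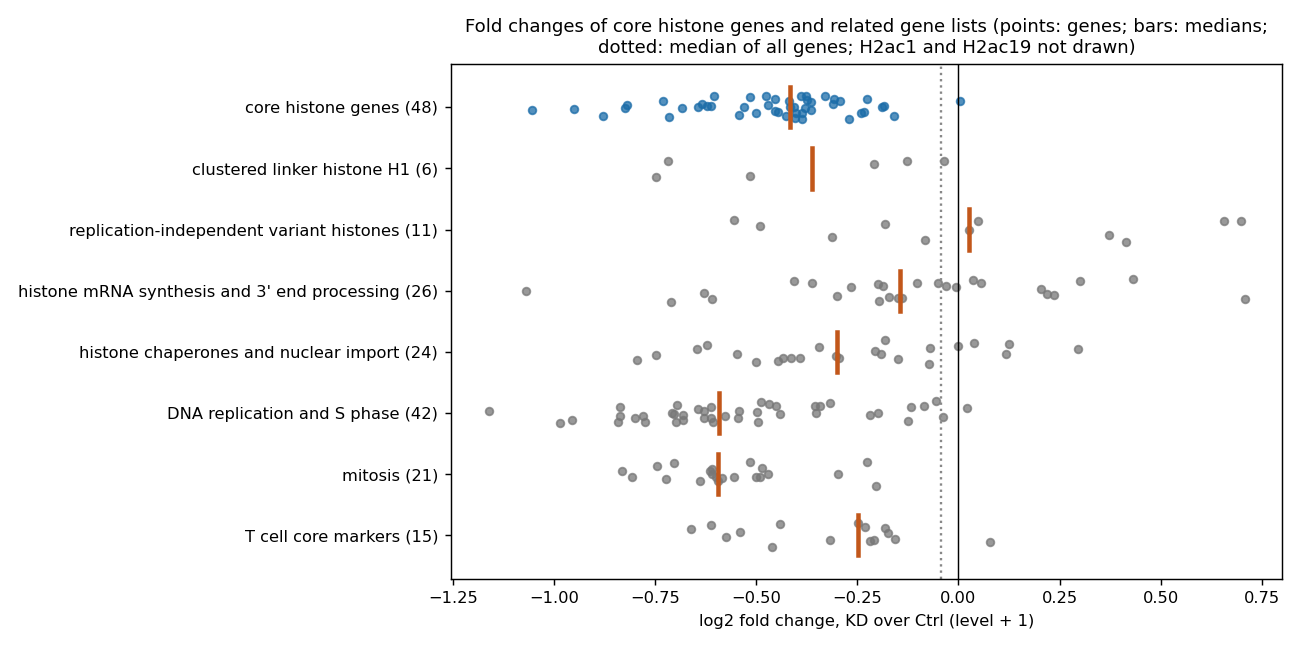
Log2 fold change (cKO, labelled KD, over Ctrl, level + 1; x axis) of 48 core histone members and of 7 gene lists, one point per gene, with orange bars at the medians and gene numbers in brackets. The core histones centre near -0.42, the S phase and mitosis genes near -0.59 and the variant histones near 0.03.

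The position of the core histones relative to 0 depended on how the libraries were scaled (5 scalings run). A scaling multiplies 1 library as a whole, so it moves the members and all other genes together, apart from genes with no reads in that library such as H2ac1, and the order of the sums and their place below the median of all genes follow from the first scaling alone. With the 15 T cell core markers set equal between the libraries, the members had a median of -0.17 where all genes had 0.20, and 4 of 50 were lower against 3325 of all 16659 genes. With the 42 S phase genes set equal, the median was 0.17 where all genes had 0.54, and 1 was lower (background 16.9%) and 2 were higher (background 47.0%). In that scaling 36 of 50 members were above 0 (background 75.8%). With reads set relative to the library total the median was -0.51 where all genes had -0.13, and 18 members were lower (background 26.6%) and 1 higher (background 15.1%). With TMM factors it was -0.44 where all genes had -0.07, with 14 lower (background 24.7%) and 1 higher (background 16.6%). An exact binomial test on the reads, adjusted over 14863 genes, compares the libraries and not the genotypes. With this test and the 1.5-fold threshold both required, 13 of 49 members were lower (background 17.5%) and 1 higher (background 14.8%). These are not counts of the test alone.

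**Figure D5:**
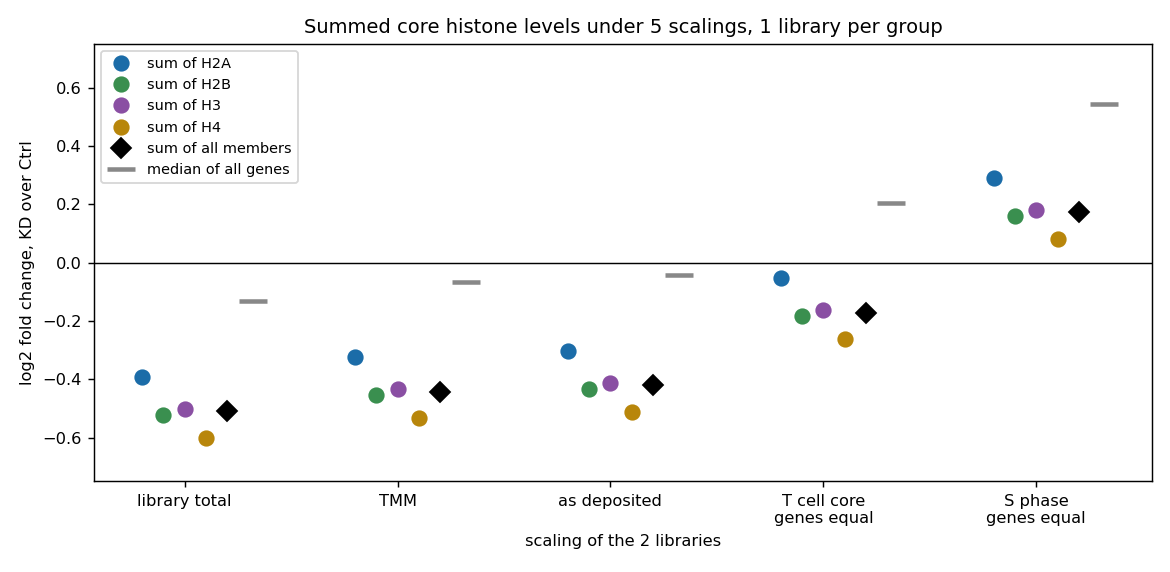
Log2 fold change (cKO, labelled KD, over Ctrl; y axis) of the summed levels of each histone type and of all members under 5 scalings of the libraries (x axis), with the median of all genes as a grey bar. Each scaling shifts the sums and the median of all genes together, and the sums lie above 0 only with the S phase genes set equal, where the sum of all members is 0.17.

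Genes of other spleen cells differed between the libraries as well, and their part in the histone values was not tested. The study's methods describe lysis of red cells, removal of cells other than CD4+ T cells and then positive selection of Treg cells, with purity checked by flow cytometry. Both libraries nevertheless held reads of genes of other cells, as listed here. The histone levels are therefore those of the whole sequenced sample and not of Treg cells alone. The 15 T cell core markers found summed to 71785 in the control and 58234 in the cKO library, from -0.66 for Cd3g to 0.08 for Cd2, with Cd4 at -0.61 and Tcf7 at -0.16. All 14 B cell markers were at least 1.5-fold higher (background 17.2%), with a sum of 9990 and 52392. Among them were Pax5 (3.101), Cd79a (2.33) and Blnk (1.11). All 14 macrophage markers were higher (background 17.2%), with a sum of 9150 and 24975. They ran from 0.78 for Slc40a1 to Marco with 0 and 20 reads. The most abundant were Mpeg1 (1.19) and Csf1r (1.15). Of 21 erythroid markers, 16 were lower (background 24.2%) and 1, Hbb-bs, was higher (background 17.2%), with a sum of 70357 and 37551. Dividing erythroid precursors express Tfrc (-1.28), Car2 (-1.28) and Tal1 (-3.30). Below 0 were 17 genes of this list, and 4 were above it, namely Hbb-bs, Hba-a2 (0.44), Hba-a1 (0.12) and Alas2 (0.05). The granulocyte and precursor list of 13 summed to 254074 and 344592, with 2 higher and 3 lower, shares near the backgrounds of 17.2% and 24.2%. Above 0 were 9 of its genes, such as S100a9 (0.46), Ngp (0.66) and Camp (0.88). The 4 below 0 were Mpo (-1.03), Elane (-0.53), Prtn3 (-1.17) and Ctsg (-1.38). The CD8 T and NK cell list had 6 of 9 higher (background 17.2%), with a sum of 5128 and 10334. Its genes include Gzma (0.84), Cd8a (2.25), Cd8b1 (2.46) and Prf1 (0.18). Of 6 plasma cell markers 2 were higher (background 17.2%), with a sum of 40567 and 43038. The list includes Jchain (0.05), Xbp1 (0.18), Tnfrsf17 (1.09) and Sdc1 (-0.37). The Treg markers were present in both libraries, with a sum of 7653 and 8429 over 8 genes. Of these, 2 were higher (background 17.2%) and 1 was lower (background 24.2%). They ran from -0.68 for Tnfrsf4 to 1.35 for Lrrc32, with Ikzf2 at -0.22. Only Marco had a library at 0 reads.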

How the data were processed

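RNA-seq of spleen cells isolated as Treg cells on day 7 was analysed as 1 control and 1 cKO library. The authors deposited 1 signal value per gene and library. All values (100%, within 0.01) were whole multiples of 1 step, 0.967 for the control and 1.14 for the cKO library, and so were read as counts divided by a size factor, from which 20239325 and 18327535 whole reads were recovered. The labels and methods name TopHat and mm10, and the submitters' processing notes name bcl2fastq 2.0, STAR, StringTie and DESeq2 without roles. The counting tool, its handling of reads with several matches, strand and annotation are not given in the sources used here.

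Fold changes were computed as log2(level + 1) for genes whose level averaged 1 or more, called at 1.5-fold, with 95% exact Clopper-Pearson intervals on reads (Python 3.11.15, numpy 2.4.6, scipy 1.17.1, pandas 2.3.3). TMM factors came from edgeR 4.0.16 (R 4.3.3). A count of 0 allows up to 3 reads. Intervals and this floor cover counting error only. The procedure was tested on simulated data. Values were named for members with at least 100 reads over both libraries. Each list was named by its 2 most abundant genes and, among genes with at least 20 reads, its largest rise and fall. All variant histones and a few histone mRNA factors and marker genes were named as well. The gene lists covered histone mRNA processing, variants, H1, chaperones, S phase, mitosis and cell type markers. The members and lists were chosen with earlier results of these data known. Positions and promoters are from RefSeq (GRCm38.p6) and transcripts from GENCODE vM21, matched for all 50 members. Each library is 1 sample, and the depth limits precision only through these intervals. Alternatives covered the pseudocount, the filter on low levels, the scaling, the fold threshold and the choice of members.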

Additional observations from a re-analysis of the deposited data

How the results depend on the processing

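With 1 library per group no replicate could be left out. No paired analysis was possible because the groups share only 1 replicate number. Another pseudocount (0.1 or 5), no filter on low levels, a mean level of at least 10 and members above 0 reads in both libraries kept every sum and the median within the counting interval and the counts within 1.5 times. Scaling by the library total gave a median of -0.51 and sums of -0.39 for H2A, -0.52 for H2B, -0.50 for H3, -0.60 for H4 and -0.51 for all members, and TMM scaling gave -0.46 for H2B and -0.44 for all members. With T cell core genes set equal, 4 members were lower, the median was -0.17 and the sums were -0.054, -0.18, -0.16, -0.26 and -0.17 in the same order. With S phase genes set equal, 1 member was lower and 2 were higher, the median was 0.17 and the sums were 0.29, 0.16, 0.18, 0.081 and 0.17, so that the direction turned for all 5 sums. A fold threshold of 2 left 2 members lower. Further alternatives were added after seeing the data. The members sharing under 50% of their 50-base words had 6 lower and 0 higher of 25, with sums of -0.38 for H2A, -0.40 for H2B, -0.28 for H3 and -0.47 for H4. Leaving out H2ac18 and H2ac19 gave 0 higher, -0.35 for H2A and -0.43 for all members. A mean level of at least 100 kept the counts within 1.5 times, and adding the copies under older symbols kept the sums of H2A, H2B, H4 and all members within their intervals. A scaling multiplies 1 library as a whole, so it is no check on the differences between members. Sums over near-identical copies rest on the counting of reads with several matches, which was not tested.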
